A study of Mus musculus with 4 samples.

Results

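The mouse mitochondrial chromosome carries 37 genes, and all 37 were listed among the 55487 genes of the deposited tables. They were taken by name, as every gene whose symbol begins with mt-, a rule that uses no measured value. The set itself was chosen with earlier results of these data known. The 37 genes fall into 13 protein-coding genes, 22 tRNA genes and 2 rRNA genes. Mouse small intestinal (SI) organoids, epithelial cultures grown from intestinal crypts, were infected with a lentivirus for a miRNA mimic control or for a miR-181a-5p mimic, and organoids of both groups were selected in puromycin at 2 μg/ml. Total RNA was sequenced in 4 libraries, of which 2 carried the mimic control (replicates 1 and 2) and 2 the miR-181a-5p mimic (replicates 3 and 4). The labels give no strain, genotype, age or sex of the mice and do not tell if replicates were separate cultures, so the p-values measure only the spread between these libraries, which may be technical. The comparison asks how levels in the organoids differed when miR-181a-5p was overexpressed.

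Mitochondrial DNA is transcribed by its own polymerase into long transcripts that span nearly a whole strand, and the tRNAs that lie between the other genes are cut out to release the mRNAs and rRNAs. The rRNAs and tRNAs serve the ribosomes inside the organelle, which make subunits of respiratory complexes I, III, IV and V. All other subunits, and every protein that copies, transcribes and processes this DNA, come from nuclear genes. In the absorptive epithelium, respiration supplies ATP for the ion gradients that drive nutrient uptake.

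A miRNA lowers mRNAs that pair with its seed, bases 2 to 8, which stand in capitals in the mature sequence from RefSeq (GRCm38.p6) and are shown because sites for them were sought in the mitochondrial genes.
mmu-miR-181a-5p: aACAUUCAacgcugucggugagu
The site that pairs with the full seed reads TGAATGT in DNA letters, and the 6-base site GAATGT lies within it. On the transcript strand, neither was found in any of the 13 protein-coding genes (11.4 kb in all) or in the 24 rRNA and tRNA genes of the GENCODE transcripts. In the longest transcripts of 21888 nuclear protein-coding genes, 7.67% of windows of 784 bases, the median length of the 13 genes, held the 7-base site and 20.5% the 6-base site. Only these letters in these annotated transcripts were examined, on the transcript strand alone.

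A stretch of nuclear chromosome 1 repeats part of the mitochondrial chromosome, and reads that match both were divided between them. Of 17 annotated nuclear transcripts that resembled a mitochondrial gene, 7 matched one at 99% identity or more over at least 90% of their length. These 7 pseudogenes lie side by side on chromosome 1 between 24611535 and 24616197 of GRCm38. They copy the first 876 bases of mt-Nd4, nearly all of mt-Nd4l, mt-Nd3, mt-Co3, mt-Atp6 and mt-Co2, and the 3′ end of mt-Co1. The first bases of mt-Co2, of its chromosome 1 copy Gm28661 and of a more diverged chromosome 2 copy, Gm13341, are shown because they differ in what can be told apart. Below them stand the matching windows of mt-Co1 and its copy Gm29216. Capitals mark the bases that differ, and positions are counted from 1 at the 5′ end of the mitochondrial gene. The sequences are those of the GENCODE transcripts of GRCm38.
mt-Co2, chrM:7013-7042, plus strand: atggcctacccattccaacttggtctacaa
Gm28661, chr1:24615536-24615565, minus strand: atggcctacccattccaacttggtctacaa
Gm13341, chr2:22587933-22587962, minus strand: atggcctacccattccaacttggtTtacaa
mt-Co1, chrM:6390-6419, plus strand: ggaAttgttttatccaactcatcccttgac
Gm29216, chr1:24616159-24616188, minus strand: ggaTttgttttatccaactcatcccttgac
Gm28661 had 0 mismatches to mt-Co2 over its 681 bases, while Gm13341 differed in this window by C25T. Over an alignment of 684 positions, Gm13341 did not match mt-Co2 at 28, gaps included. Gm29216 differed from mt-Co1 by A1066T and by no other base over 483 aligned bases.

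Reads from identical stretches cannot be told apart, and RSEM, the counting tool, divides them among the candidate transcripts as fractions of expected counts. The division was uneven. Of the expected counts of mt-Co2 and Gm28661 together, 0.737% and 0.269% were listed under mt-Co2 in the control libraries against 0.658% and 0.606% in the mimic libraries. For mt-Co3 the listed share was 3.96% and 7.18% in the controls against 3.87% and 4.99% with the mimic. For mt-Atp6 it was 16.1% and 10.5% in the controls against 13.3% and 17.0% with the mimic. These 3 genes thus had most of their counts under a pseudogene, and the share moved between replicates of 1 group by as much as between the groups. For mt-Nd4l the listed share was 68.4% and 75.1% against 65.1% and 70.2%. For mt-Co1 it was 97.5% and 97.2% against 99.4% and 97.6%, and its copy Gm29216 held 2603 counts in mimic replicate 3 where the other 3 libraries held between 14224 and 20002. The copies of mt-Nd3 and mt-Nd4 were at 0 counts in all 4 libraries. Each value of mt-Co1, mt-Co2, mt-Co3, mt-Atp6 and mt-Nd4l is therefore given both as listed and with the counts of the near-identical copy added, an addition chosen after the counts were seen. Whether any read came from chromosome 1 was not tested.

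**Figure D1:**
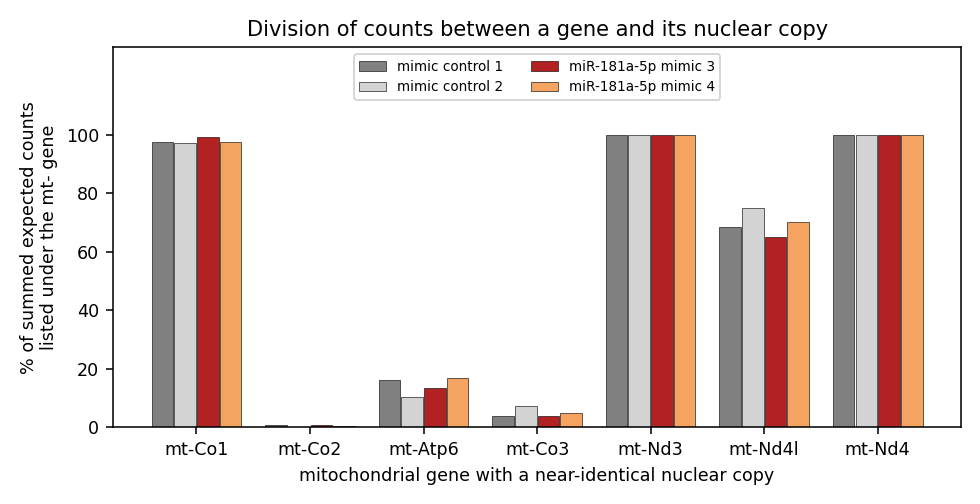
Percent of the summed expected counts of a mitochondrial gene and its near-identical nuclear copy that was listed under the mitochondrial gene (y axis), for the 7 genes with such a copy and the 4 libraries (bars). Nearly all counts of mt-Co2 and most counts of mt-Atp6 and mt-Co3 were listed under the pseudogene, whereas mt-Nd3 and mt-Nd4 kept 100% in every library.

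Mitochondrially encoded RNA took a smaller share of the library with the miR-181a-5p mimic. The 37 genes held 4.30% and 4.55% of the expected counts in the mimic control libraries against 3.46% and 3.43% in the mimic libraries. Both mimic libraries were below both controls. The means were 4.43% ± 0.18 and 3.45% ± 0.02 (SD, n = 2), a difference of -0.98 percentage points. An exact two-sided permutation test gave p = 0.333, the smallest that 2 libraries against 2 allow. With the near-identical copies added, the shares were 6.28% and 6.64% in the controls against 5.21% and 5.17% with the mimic, a difference of -1.27 percentage points. In bulk RNA, fewer cells rich in mitochondria and less mitochondrial RNA per cell cannot be told apart.

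**Figure D2:**
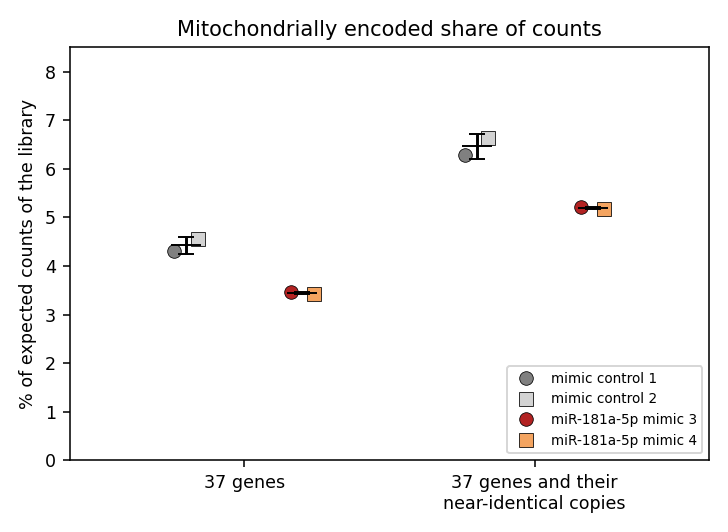
Percent of each library's expected counts held by the 37 mitochondrially encoded genes as listed (left) and with their near-identical nuclear copies added (right). Points are libraries, horizontal marks and bars are the group mean and SD (n = 2), and both mimic libraries lie below both controls in either counting.

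The libraries held between 31104884 and 38111731 expected counts, so counting error was small for all but the tRNA genes. Control replicate 1 stood apart in rRNA: the 354 annotated nuclear rRNA genes took 0.369% of its counts and between 0.0623% and 0.0789% in the other 3. As a check of the labelled intestinal epithelium, 20 enterocyte genes summed to between 10651 and 13268 normalized CPM. Normalized CPM are counts as parts of the library total after TMM scaling, on the usual CPM scale. Leukocyte markers summed to between 3.52 and 5.98 normalized CPM, and mesenchymal markers to between 3.81 and 6.97 with Col1a2, Col3a1 and Dcn at 0.

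Of the 37 genes, 16 passed the filter on low counts and were tested: all 13 protein-coding genes, both rRNA genes and 1 tRNA gene, mt-Ts1. Between the groups 3 of these 16 passed the threshold, which was 0.05 for the adjusted p of edgeR's quasi-likelihood test, against 3.57% of all 17155 genes tested. Lower with the mimic were 2 of them, mt-Rnr1 and mt-Nd4l (2.29% of all genes were called lower), and 1 was higher, mt-Ts1 (1.28% of all genes). The groups did not overlap and the mimic was lower for 10 of the 16 genes, which held for 29.5% of all genes tested, and the mimic was higher without overlap for mt-Ts1 (28.9% of all genes). Of the 13 protein-coding genes, 1 was called, 10 had a log2 fold change below 0 and the median was -0.36, beside 51.4% of all genes below 0 and a median of -0.01 over them. With the copies added, 0 of the 13 were called by edgeR, 6 had an unadjusted p under 0.05 (24.8% of all genes as listed), 12 had a log2 fold change below 0 and were lower in both mimic libraries than in both controls, and the median was -0.29.

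**Figure D3:**
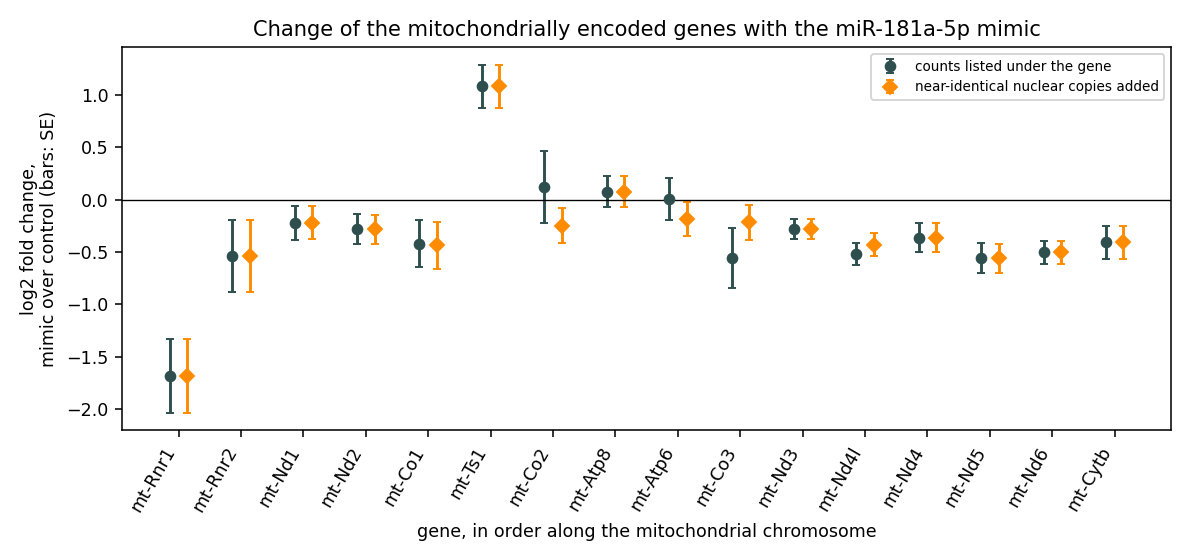
Log2 fold change of mimic over control (y axis) for the 16 tested genes in chromosome order, with the standard error of the edgeR fit as bars. Circles use the counts listed under each gene and diamonds add the near-identical nuclear copies, which turned mt-Co2 and mt-Atp6 from above 0 to below it.

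Of the rRNAs, mt-Rnr1, the rRNA of the small mitochondrial ribosomal subunit (chromosome M, 70 to 1024), fell with the mimic. Its normalized CPM were 238 and 112 in the controls against 67.6 and 41.7 with the mimic. Both mimic libraries were lower, but the controls differed from each other by more than the lower control differed from the mimic libraries. As log2 fold change with its standard error (SE), the difference was -1.68 ± 0.35 (adjusted p = 0.0478 in edgeR). The difference did not pass the threshold in DESeq2 (adjusted p = 0.0698) or in edgeR's robust quasi-likelihood test (adjusted p = 0.164). Without control replicate 1, the library with the highest nuclear rRNA share, it was -1.04 (adjusted p = 0.0291). Of 23 other settings, which leave out those scaled to the 13 protein-coding genes, it passed the threshold in 15, and the adjusted p reached 0.325. Some of the 23 add the near-identical copies. mt-Rnr1 has no such copy, so these nearly repeat other fits of the same gene, and it passed in each of them. mt-Rnr2, the rRNA of the large subunit (1094 to 2675), had 491 and 254 normalized CPM in the controls against 331 and 182 with the mimic, and the groups overlapped (-0.54 ± 0.34 SE as log2 fold change, adjusted p = 0.363). The ratio of mt-Rnr2 to mt-Rnr1 counts was 2.06 and 2.26 in the controls against 4.90 and 4.36 with the mimic, so the pair did not move alike. The supplemental methods describe enzymatic depletion of ribosomal RNA, while the labels give poly(A) enrichment. These are levels of what was left after the library preparation, and its part in these differences was not tested.

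The tRNA genes were nearly unmeasured. They span 59 to 75 bases, and the 21 other than mt-Ts1 held 26 and 22 counts in all in the controls and 66 and 24 in the mimic libraries, with 6 genes at 0 in every library. Their highest count was 17, for mt-Tn, the tRNA for asparagine, in mimic replicate 3. Mature tRNAs were therefore not detectable as a class in these libraries, and their levels were not compared. The supplemental methods describe a single-read kit with more cycles than any of these genes has bases. The part of read length was not tested. mt-Ts1, a serine tRNA gene on the minus strand (6870 to 6938), had 158 and 134 counts in the controls against 320 and 272 with the mimic. In normalized CPM these were 4.12 and 4.32 against 10.2 and 7.64, so both mimic libraries were above both controls. It rose by 1.08 ± 0.21 SE on the log2 scale (adjusted p = 0.0399 in edgeR). The call was lost without control replicate 1 (1.04, adjusted p = 0.0614) or mimic replicate 3 (0.86, adjusted p = 0.148). mt-Ts1 lies opposite and overlaps by 3 bases the end of mt-Co1, the mRNA with the most counts, and its counts came to 0.0209% and 0.0188% of those of mt-Co1 with its copy in the controls and to 0.068% and 0.0462% with the mimic. The strand setting of the counting is not stated, and without strand such reads cannot be told apart.

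Complex I, the NADH dehydrogenase through which electrons enter the chain, draws 7 subunits from mitochondrial DNA, and all 7 had lower means with the mimic. mt-Nd4l had 391 and 431 normalized CPM in the controls against 299 and 275 with the mimic as listed. It fell by this count (-0.52 ± 0.10 SE as log2 fold change, adjusted p = 0.0455 in edgeR). With the copy Gm10222 added its values were 571 and 574 against 459 and 391.8, and the call was lost (log2 fold change -0.43, adjusted p = 0.0781). It was also lost without mimic replicate 3 (-0.57, adjusted p = 0.142) or mimic replicate 4 (-0.46, adjusted p = 0.167).

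mt-Nd5 and mt-Nd6 came next. mt-Nd5, one of the proton-pumping subunits (11742 to 13565), had 3796 and 4190 normalized CPM in the controls against 2712 and 2702 with the mimic. The mimic replicates were almost equal, and both lay well below the controls (-0.56 ± 0.14 SE as log2 fold change, adjusted p = 0.0759). mt-Nd6, the lone mRNA of the minus strand (13552 to 14070), had 439.8 and 455 against 341 and 292, which do not overlap either (-0.50 ± 0.11 SE as log2 fold change, adjusted p = 0.0545). Neither passed the threshold in the quasi-likelihood test, and of the same 23 other settings mt-Nd5 passed it in 10 and mt-Nd6 in 7, always with a log2 fold change below 0. Neither gene has a near-identical copy, so for them too the settings with copies added nearly repeat others. The 2 genes overlap by 14 bases at their 3′ ends on opposite strands, and the mt-Nd6 counts were between 10.8% and 12.6% of those of mt-Nd5.

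The remaining complex I genes did not pass the threshold in edgeR's quasi-likelihood test, and of them DESeq2 called mt-Nd4 (adjusted p = 0.0142). mt-Nd4 (10167 to 11544) had 4053 and 3998 normalized CPM in the controls against 3183 and 3076 with the mimic (-0.36 ± 0.14 SE as log2 fold change, adjusted p = 0.1695). mt-Nd3 (9459 to 9806) had 684 and 674 against 566 and 552 (-0.28 ± 0.10 SE as log2 fold change, adjusted p = 0.143). For both genes the replicates lay closer together than the groups. mt-Nd2 (3914 to 4951) had 1753 and 1979 against 1669 and 1393, with a log2 fold change of -0.29. mt-Nd1 (2751 to 3707) had 4613 and 5275 against 4443 and 4042, with a log2 fold change of -0.22. The groups of these 2 genes were apart, but by less than the spread between their own replicates.

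Complex III has 1 subunit encoded here, mt-Cytb, the cytochrome b that passes electrons from ubiquinol (14145 to 15288). Its normalized CPM were 5171 and 5163 in the controls against 4193 and 3586 with the mimic. The controls were nearly equal and lay above both mimic libraries (-0.41 ± 0.16 SE as log2 fold change), but the adjusted p was 0.171 in edgeR and 0.0224 in DESeq2.

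Complex IV, cytochrome c oxidase, takes its catalytic core from mt-Co1, mt-Co2 and mt-Co3. mt-Co1 (5328 to 6872) had 19249 and 22357 normalized CPM in the controls against 14954 and 16135 with the mimic as listed. The groups were apart, with a log2 fold change of -0.42 ± 0.23 SE (adjusted p = 0.289 in edgeR and 0.0211 in DESeq2), and of -0.44 with its copy added. mt-Co2 (7013 to 7696), as listed, had only 45.9 and 18.9 against 37.6 and 33.0, which overlap (0.12 ± 0.34 SE as log2 fold change, adjusted p = 0.861). With Gm28661 added the same gene had 6227 and 7026 against 5716 and 5440, and the log2 fold change was -0.25 (SE 0.16, adjusted p = 0.383). As listed, its log2 fold change was 0.89 without control replicate 1 (adjusted p = 0.0114) and -0.37 without control replicate 2, so 1 control library decided the direction.

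mt-Co3 (8607 to 9390) depended on the counting in size. As listed it had 288 and 555 normalized CPM in the controls against 243 and 329 with the mimic, which overlap (-0.56 ± 0.28 SE as log2 fold change, adjusted p = 0.267). With Gm28437 added it had 7266 and 7728 against 6296 and 6603, which do not, and the log2 fold change was -0.22 (SE 0.17, adjusted p = 0.4495). As listed the value ran from -0.96 without control replicate 1 (adjusted p = 0.00892) to -0.0011 without control replicate 2.

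Complex V, the ATP synthase, has 2 subunits encoded here, mt-Atp6 and mt-Atp8, whose genes overlap by 43 bases and are read from 1 mRNA. mt-Atp6, which forms part of the proton channel (7927 to 8607), had 1111 and 753 normalized CPM in the controls against 829 and 1044 with the mimic as listed (log2 fold change 0.01, adjusted p = 0.989). With Gm10925 added it had 6888 and 7154 against 6214 and 6143, and the log2 fold change was -0.18 (SE 0.16, adjusted p = 0.511). mt-Atp8 (7766 to 7969) had 459 and 378 against 494 and 388, which overlap (0.07 ± 0.15 SE as log2 fold change, adjusted p = 0.792). mt-Atp8 was thus the protein-coding gene with a log2 fold change above 0 in both countings, and it went below 0 without control replicate 2 (-0.05) or mimic replicate 3 (-0.10).

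Summed per complex with the copies added, complex I subunits went from 16528 ± 874 to 12910.2 ± 652 normalized CPM (SD, n = 2). The complex III subunit went from 5167 ± 5.81 to 3890 ± 429, complex IV from 35501 ± 3191 to 27813 ± 1080, and complex V from 7440 ± 131 to 6620 ± 125. The log2 ratios of these means were -0.36, -0.41, -0.35 and -0.17, and the groups were apart for each complex. Whether complex V differed from the others was not tested.

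**Figure D4:**
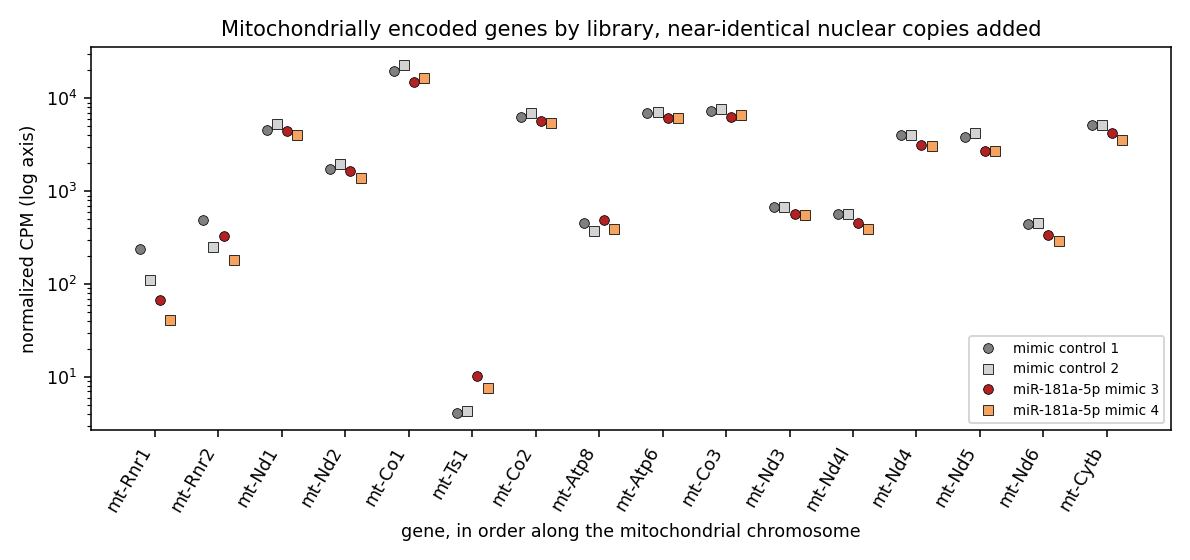
Normalized CPM (log axis) of the 16 tested genes in chromosome order in each library, with near-identical nuclear copies added. Grey points are the mimic controls and coloured points the miR-181a-5p mimic libraries, and mt-Ts1 is the gene where both coloured points lie above both grey ones.

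Levels of different genes were compared per length, as TPM with the copies added. mt-Co1 had the highest mean in the controls, 18774 ± 2275 TPM (SD, n = 2), followed by mt-Atp6 with 14326 ± 521, mt-Co2 with 13465 ± 1274 and mt-Co3 with 12964 ± 685. In the controls mt-Atp6 overlapped with mt-Co2 and mt-Co2 with mt-Co3, and over all 4 libraries mt-Co1 overlapped with mt-Atp6 too. A second tier held mt-Nd1 (6822 ± 709 TPM), mt-Cytb (5853 ± 47.2) and mt-Atp8 (4642 ± 588), of which mt-Cytb and mt-Atp8 overlapped over the 4 libraries. mt-Atp8 stood apart from mt-Atp6, although both are read from 1 mRNA. TPM of a short gene depend on the length that the counting tool assigned to it, which is not given. The rank of short genes, such as mt-Atp8 (204 bases) and mt-Nd4l (297 bases), is therefore uncertain. mt-Nd4, mt-Nd4l, mt-Nd3, mt-Nd5 and mt-Nd2 followed between 3727 and 2352 TPM, each overlapping with its neighbour over the 4 libraries. mt-Nd6 was lowest, at 1258 ± 42.7 TPM in the controls and 924 ± 40.8 with the mimic, and overlapped with none.

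The make-up of the mRNA class depended on the counting. As a share of the summed counts of the 13 genes with the copies added, mt-Nd5 took 6.15% and 6.20% in the controls against 5.28% and 5.28% with the mimic, and mt-Nd6 took 0.713% and 0.674% against 0.664% and 0.571%. Both genes took less in each mimic library than in either control. The shares of mt-Nd1, mt-Co2, mt-Atp8, mt-Atp6 and mt-Co3 were higher in both mimic libraries than in both controls, as for mt-Atp6 with 11.2% and 10.6% against 12.11% and 12.01%. The other 6 genes overlapped. Groups that did not overlap for 7 of 13 shares stand beside 29.5% of all genes lower and 28.9% higher without overlap. As listed, mt-Nd5 and mt-Nd4l took less, mt-Nd1, mt-Atp8 and mt-Nd3 took more, and the other 8, mt-Nd6 among them, overlapped. Scaled to the 13 genes with the copies added, the log2 fold change was -0.23 for mt-Nd5 (adjusted p = 0.223 in edgeR) and -0.17 for mt-Nd6 (adjusted p = 0.278), and the lowest adjusted p of the 13 was 0.0958, for mt-Atp8. By position, the 7 plus-strand mRNAs from mt-Nd1 to mt-Co3 had log2 fold changes between -0.44 and 0.07 with a median of -0.22, and the 5 from mt-Nd3 to mt-Cytb between -0.56 and -0.28 with a median of -0.41. Across these 12 genes, which share their libraries and in part their precursor, Spearman's rho between start position and log2 fold change was -0.42, and between -0.71 and -0.29 with 1 library left out. The rRNA genes mt-Rnr1 and mt-Rnr2, on the same strand before mt-Nd1, were not included and had log2 fold changes of -1.68 and -0.54. The comparison by position was not among the planned results.

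Nuclear genes for the same complexes had a median near 0 whose sign rested on 1 control library. Of 77 nuclear subunits of complexes I to V, all tested, 0 were called in edgeR and 1 in DESeq2, 5 had an unadjusted p under 0.05 in edgeR, 63 had a log2 fold change above 0 and the median was 0.10. Over all 17155 genes tested, 3.57% were called in edgeR and 24.8% had an unadjusted p under 0.05. DESeq2 called 1330 genes in all, and 51.4% of all genes had a log2 fold change below 0. Their summed level was 11343 and 13302 normalized CPM in the controls against 13391 and 12672 with the mimic, which overlap. By complex the medians were 0.11 for the 36 tested subunits of complex I, 0.01 for the 4 of complex II, 0.10 for the 9 of complex III, 0.07 for the 11 of complex IV and 0.12 for the 17 of complex V. Without control replicate 1 the median of the 77 was -0.035 and those of complexes I to V were -0.030, -0.13, -0.059, -0.054 and 0.0063, so 4 of the 5 turned. Without control replicate 2 the median of the 77 was 0.23, and without mimic replicate 3 that of complex II was -0.030. The difference between the mitochondrially encoded and the nuclear subunits was not tested.

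**Figure D5:**
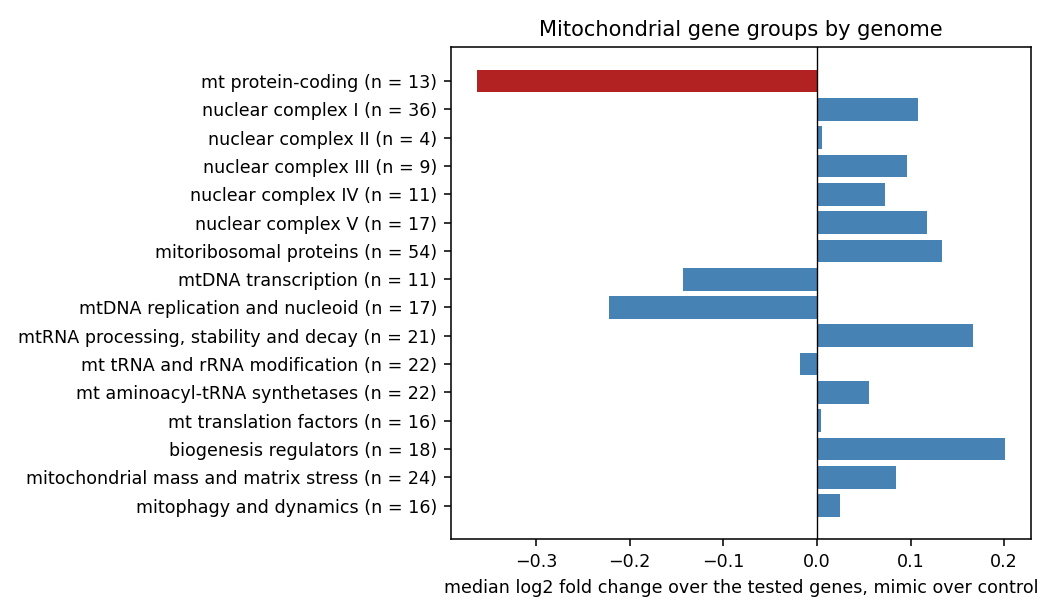
Median log2 fold change of mimic over control (x axis) for the 13 mitochondrially encoded protein-coding genes as listed (red) and for groups of nuclear genes with a mitochondrial role (blue), with the number of tested genes in brackets. The red bar stands at -0.36 and the bars of the nuclear subunits of complexes I to V between 0.01 and 0.12, the latter between -0.13 and 0.0063 without control replicate 1.

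Among nuclear genes that act on mitochondrial DNA and RNA, 2 of 161 tested in 7 lists were lower at the threshold in edgeR and 0 were higher, beside 2.29% and 1.28% of all genes, with 35 at an unadjusted p under 0.05 and 5 called in DESeq2. Of all genes tested, 24.8% had an unadjusted p under 0.05 in edgeR, and DESeq2 called 1330 of the 17155. The 2 lower genes belong to the 17 genes of DNA replication and the nucleoid, whose median was -0.22. Tk2, the mitochondrial thymidine kinase, had 9.18 and 8.36 normalized CPM in the controls against 4.02 and 4.86 with the mimic (log2 fold change -0.98, adjusted p = 0.0396 in edgeR). Slc25a36, a carrier of pyrimidine nucleotides, had 260.4 and 194 against 135 and 144 (log2 fold change -0.70, adjusted p = 0.0469). The groups of both genes were apart. Without mimic replicate 3 neither was called (adjusted p = 0.146 and 0.117 in edgeR), and Tk2 was not called without control replicate 1 (adjusted p = 0.0671).

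Of the 11 transcription genes 0 were called in edgeR and 1 in DESeq2, 3 had an unadjusted p under 0.05 in edgeR, and the median was -0.14, but -0.0055 without control replicate 1 and 0.073 without mimic replicate 4. For this and the next lists, the shares over all 17155 genes tested were 3.57% called in edgeR and 24.8% at an unadjusted p under 0.05. DESeq2 called 1330 of all genes. Polrmt, the mitochondrial RNA polymerase, had a log2 fold change of 0.28 (adjusted p = 0.216), Tfam, which packages and activates the DNA, of 0.07 (adjusted p = 0.692) and Tfb2m, an initiation factor, of 0.36 (adjusted p = 0.113). Of 21 genes of RNA processing, stability and decay 0 were called in edgeR and 1 in DESeq2, 7 had an unadjusted p under 0.05 in edgeR, 19 were above 0 and the median was 0.17. Among them Lrpprc and Slirp, which stabilize mitochondrial mRNAs together, had 0.07 (adjusted p = 0.753) and 0.19 (adjusted p = 0.391), the poly(A) polymerase Mtpap 0.13 (adjusted p = 0.463), and the RNA-degrading Pnpt1 0.04 (adjusted p = 0.811). The lists of mitoribosomal proteins (54 genes, median 0.13), tRNA and rRNA modification (22, -0.02), aminoacyl-tRNA synthetases (22, 0.06) and translation factors (16, 0.00) had 0 calls each in edgeR, while 9, 3, 4 and 4 of them had an unadjusted p under 0.05, and DESeq2 called 1 mitoribosomal gene and 0 of the others. With 1 library left out, the medians ran from 0.0060 to 0.24 for mitoribosomal proteins, from -0.057 to 0.087 for modification, from 0.0046 to 0.14 for the synthetases and from -0.056 to 0.088 for translation factors, and that of the replication genes from -0.27 to -0.11.

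Of 18 tested biogenesis regulators 1 was called in edgeR and 2 in DESeq2, and 8 had an unadjusted p under 0.05 in edgeR. Among all 17155 genes tested, 3.57% were called in edgeR, 1330 genes were called in DESeq2, and 24.8% had an unadjusted p under 0.05 in edgeR. Ppargc1a, the coactivator PGC-1α that raises mitochondrial gene programmes, had 29.6 and 33.5 normalized CPM in the controls against 19.35 and 18.01 with the mimic. It fell by 0.76 on the log2 scale (SE 0.12, adjusted p = 0.0259 in edgeR), and the groups were apart. The list as a whole had 14 genes above 0 and a median of 0.20. Mitochondrial mass and matrix stress genes (24) and mitophagy and dynamics genes (16) had 0 calls in edgeR and in DESeq2, 1 and 2 members with an unadjusted p under 0.05, and medians of 0.08 and 0.02, which were -0.0096 and -0.054 without control replicate 1, the latter also -0.070 without mimic replicate 4. Of reported miR-181 targets with a mitochondrial role, 5 were tested and 0 called in edgeR, while 1 had an unadjusted p under 0.05 and DESeq2 called 2, of which 1 was mt-Co1. Nrf1, a regulator of respiratory genes, had 0.21 (adjusted p = 0.357), Cox11, a complex IV assembly factor, 0.25 (adjusted p = 0.407), Coq10b, a coenzyme Q binding protein, 0.72 (adjusted p = 0.0666), Prdx3, a mitochondrial peroxidase, 0.05 (adjusted p = 0.777), and mt-Co1 the value given above.

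Markers of cell types moved with the groups in part. For comparison, edgeR called 2.29% of all 17155 genes tested lower and 1.28% higher. An unadjusted p under 0.05 in edgeR was held by 24.8% of all genes, and DESeq2 called 1330 genes. Of 20 enterocyte genes 2 were lower, among them Anpep (log2 fold change -2.14), and 1 was higher, Slc2a5 (2.06), with a median of -0.15 that was 0.076 without control replicate 2. Their summed level was 11490 and 13268 normalized CPM in the controls against 12062 and 10651 with the mimic, which overlap. Of 10 stem cell genes 1 was lower, Lgr5 (-1.38), and the median was 0.06, but -0.17 without control replicate 2 and -0.059 without mimic replicate 4. Of 10 proliferation genes 1 was higher in edgeR, Mcm2 (0.51), while 5 had an unadjusted p under 0.05 and DESeq2 called 4, 9 were above 0, and the summed level was 2036 and 2059 against 2262 and 2115, which do not overlap. Of the 7 tested genes each of goblet and Paneth cells 1 and 0 were called in edgeR, the former being Spink4 (-0.59), 3 and 2 had an unadjusted p under 0.05, and DESeq2 called 3 and 1, with medians of -0.43 and -0.49. The goblet median was 0.22 without control replicate 2 and the Paneth median 0.086 without control replicate 1. The 8 enteroendocrine, 4 tuft, 1 mesenchymal and 2 leukocyte genes tested had 0 calls in edgeR and in DESeq2, while 1, 0, 0 and 1 of them had an unadjusted p under 0.05, and medians of -0.14, -0.14, 0.56 and 0.38. The enteroendocrine and tuft medians were 0.40 and 0.31 without control replicate 1. Without mimic replicate 3 the calls of Mcm2 and Spink4 were lost (adjusted p = 0.154 and 0.171 in edgeR), and that of Mcm2 also without mimic replicate 4 (adjusted p = 0.0517) or control replicate 1 (adjusted p = 0.0544). The part of these in the lower mitochondrially encoded share was not tested.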

How the data were processed

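RNA-seq was analysed for 4 libraries of mouse SI organoids. The authors trimmed single reads with Trimmomatic and mapped them to GRCm38 transcripts with RSEM, and deposited expected counts per gene, not normalized, and TPM, scaled per length and library. The release of the annotation is not given in the sources used here. The supplemental methods describe rRNA depletion and the labels poly(A) enrichment. Of RNAs without a poly(A) tail, Rn7sk had at least 9740, Rpph1 at least 2056 and Rmrp at least 553 normalized CPM in every library, and Terc was at 0. Which description holds was not tested. Each deposited file held 3 further columns that matched no sample and that were not used.

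After rounding to whole numbers, the expected counts were compared by edgeR 4.0.16 (R 4.3.3; filterByExpr, TMM, estimateDisp, glmQLFit without the legacy form, glmQLFTest) over 17155 genes with Benjamini-Hochberg adjustment, and only mitochondrial and listed genes were read out. The standard error is the log2 fold change divided by the square root of F. Steps were tested on simulated data. Gene symbols and coordinates came from GENCODE release 21 for mouse (GRCm38) for 55141 of 55487 genes. Nuclear copies were found by megablast of its transcripts against the 37 genes. The 37 genes and all lists were chosen with earlier results of these data known. Named from each other list were at most 4 called genes with the largest change, and 12 fixed genes. Marker genes named as being at 0 were chosen after their values were seen.

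The alternatives were edgeR's exact, likelihood-ratio and robust tests, DESeq2 1.42.0, RLE factors, library totals, scaling without mitochondrial genes or relative to the 13 protein-coding genes, other filters, limma 3.58.1 on log2(TPM + 1) or log2(TPM + 0.1) with and without a filter of 1 TPM in 2 libraries, and each library left out. A fold change from TPM includes the pseudocount and so understates the change of a low gene. The legacy form and the added copies were chosen after seeing the data. Depth was between 31104884 and 38111731 counts, and the precision with 2 against 2 libraries depends mainly on how far replicates differ (biological coefficient of variation 0.13). Single results for some marker genes are not reported here.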

Additional observations from a re-analysis of the deposited data

How the results depend on the processing

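No paired analysis was possible because the groups share no replicate numbers (controls 1 and 2, mimics 3 and 4). The lower mitochondrial share kept its direction in each form in which it was computed, between -1.27 and -0.86 percentage points. These forms were shares of TPM or of protein-coding counts, parts of the gene set, added copies, and each library left out. Leaving out 1 library could not turn the direction, because the groups did not overlap. The cause of the changes listed here was not tested.

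Over all genes, calls numbered 612, but 1788 by edgeR's exact test, 1864 by its likelihood-ratio test, 1330 by DESeq2, 192 without a filter, and 75, 27 and 2 by limma on log2(TPM + 1), log2(TPM + 0.1) and log2(TPM + 1) without a filter. Leaving out 1 library gave between 373 and 2365, or 373 and 2391 with copies added. Of the mitochondrial genes 3 were called, but 5 by the exact test, 5 by the likelihood-ratio test, 7 by DESeq2, 1 without a filter (mt-Nd5), 0 by limma in each TPM fit (4, 4 and 2 at an unadjusted p under 0.05), and between 1 and 6 with 1 library left out. The median of the 13 protein-coding genes, -0.36, was -0.29 with copies added under either scaling and -0.30 in each TPM fit, and between -0.38 and -0.26 with 1 library left out.

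Some signs turned. mt-Co2 was -0.25 and mt-Atp6 -0.18 with copies added, and -0.25 and -0.19 when the scaling also left out mitochondrial genes. mt-Atp6 was -0.0048 with at least 10 counts in every library. Relative to the 13 genes, mt-Nd1 was 0.16, mt-Nd2 0.10, mt-Nd3 0.10 and mt-Nd4 0.014, and with copies added mt-Nd1 was 0.12, mt-Nd2 0.051, mt-Co2 0.088, mt-Atp6 0.15, mt-Co3 0.12 and mt-Nd3 0.050. That scaling sets each gene against the sum of the 13, so a gene that fell less than the sum comes out above 0. In all 23 other settings without it, mt-Nd1, mt-Nd2, mt-Nd3, mt-Nd4 and mt-Co3 were below 0. With 1 library left out, either counting included, mt-Rnr2 ran from -1.03 to 0.0095 (0.0076 with copies added), mt-Co2 from -0.37 to 0.89, mt-Atp8 from -0.10 to 0.24 and mt-Atp6 from -0.24 to 0.31. When a library was left out the lone library of its group was assumed to vary like the others.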

Other observations

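Of the 22 mitochondrial tRNA genes, 1 had a TPM above 0 in any library: mt-Tl1, a leucine tRNA gene of 75 bases, was listed at 371 TPM in mimic replicate 3 and at 0 in the other 3 libraries, while its expected counts were 2 and 3 for the controls against 12 and 2 for the mimic. mt-Ts1, with between 134 and 320 counts, was listed at 0 TPM in all 4 libraries. Among these genes the TPM column thus does not follow the count column.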
